A study of Saccharomyces cerevisiae with 4 samples.

Results

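Autophagy delivers cytoplasm, organelles and enzymes to the vacuole in double-membrane vesicles, and most of its core machinery was named ATG after yeast mutants. A kinase complex starts the process, membrane and lipid proteins build the vesicle, a pair of ubiquitin-like conjugation systems attaches the small protein Atg8 to the membrane, and receptors tie chosen cargo to Atg8. In growing yeast the same proteins also run the cytoplasm-to-vacuole targeting (Cvt) pathway, which carries vacuolar enzymes to their place of work. The 33 autophagy genes described here were given by their open reading frame (ORF) names, ATG1 to ATG40 with gaps and SNX4. Their ribosome footprints were read in 4 libraries that list 5441 ORFs each. A minimum of 200 counts summed over the 4 libraries kept 31 of the 33 genes and 4997 of all ORFs. All 33 have a single coding exon in the R64 annotation. The genes described most closely are ATG33 (YLR356W, chrXII:840321-840914, plus strand), ATG12 (YBR217W, chrII:657832-658392, plus strand), ATG23 (YLR431C, chrXII:1000342-1001703, minus strand), ATG5 (YPL149W, chrXVI:271310-272194, plus strand) and ATG22 (YCL038C, chrIII:54941-56527, minus strand). ATG8 (YBL078C) lies at chrII:80378-80731 on the minus strand. ATG16, with 199 counts, and ATG10, with 79, were under the minimum, and the kept genes nearest to the minimum were ATG12, with 348 counts, and ATG14, with 365.

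Ribosome profiling sequences the mRNA pieces that ribosomes protect from nuclease, so each value holds mRNA level and translation together, and in a bulk culture fewer cells and less RNA per cell cannot be told apart. All cells were Saccharomyces cerevisiae of strain Y7092, grown to early log phase in synthetic defined medium, with plasmid genes induced for 2 h; the labels name no starvation step. The 4 groups were vps35::natMX cells with pAG416GAL-TIF4631, vps35::natMX cells with pAG416GAL-ccdB, cells labelled wild type with pAG416GAL-TIF4631, and wild-type cells with pAG416GAL-ccdB. VPS35 encodes the core subunit of retromer, which retrieves membrane proteins from endosomes, TIF4631 encodes the initiation factor eIF4G1, and the plasmids drive their insert from a galactose-responsive promoter. Each group was 1 library, with no replicate, so no difference between 2 libraries has a replicate check. The labels do not say whether a strain was 1 clone or several.

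The libraries held 11240681 to 18067205 counts. VPS35 had 10 and 9 counts in the deletion libraries with the TIF4631 and the control plasmid, against 1974 and 2187 in the libraries labelled wild type. TIF4631 stood at 6218 CPM (counts per 1000000 counts of the library, scaled between libraries) in the deletion library with its plasmid and at 435 CPM in the deletion control. The library labelled as wild type with the TIF4631 plasmid, titled wt tif, held 403 CPM, against 455 CPM in the wild-type control. Its target gene goes against its label, so it is called by that title below, and any direction drawn from it describes the library labelled wt tif. URA3, the marker gene of pAG416 plasmids, stood at 118 CPM in the deletion library with TIF4631 and at 732 to 885 CPM in the others, a difference whose part in the results was not tested. The alpha-cell gene STE3 lay between 377 and 432 CPM, while each of the 6 a-cell genes examined stayed at or under 5.52 CPM.

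Most autophagy genes had low footprint levels, and the whole set was spread widely. Per ORF length, in the deposited RPKM (reads per 1000 bases of ORF and per 1000000 reads of the library), 26 of the 33 genes lay below 37.6, the median of all listed ORFs for the mean of the 4 libraries. The means ran from 2.57 for ATG10 to 164 for ATG33, a 64.0-fold span. Together the 33 genes took 0.121%, 0.116%, 0.121% and 0.108% of all counts in the deletion library with TIF4631, the deletion control, the wt tif library and the wild-type control. Within a single gene the libraries differed little: the median ratio of the highest to the lowest CPM was 1.26 over the 31 kept genes, and the extremes were 1.11 for ATG3 and 1.89 for ATG12. Of these 31 genes, 23 had their highest CPM in the wt tif library, 6 in the deletion library with TIF4631, 2 in the deletion control and 0 in the wild-type control, against 25.6%, 37.7%, 19.0% and 17.8% of all kept ORFs in the same order. The lowest CPM lay in the deletion library with TIF4631 for 13 genes, in the deletion control for 4, in the wt tif library for 0 and in the wild-type control for 14, against 36.9%, 16.9%, 26.5% and 19.7% of all kept ORFs.

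**Figure D1:**
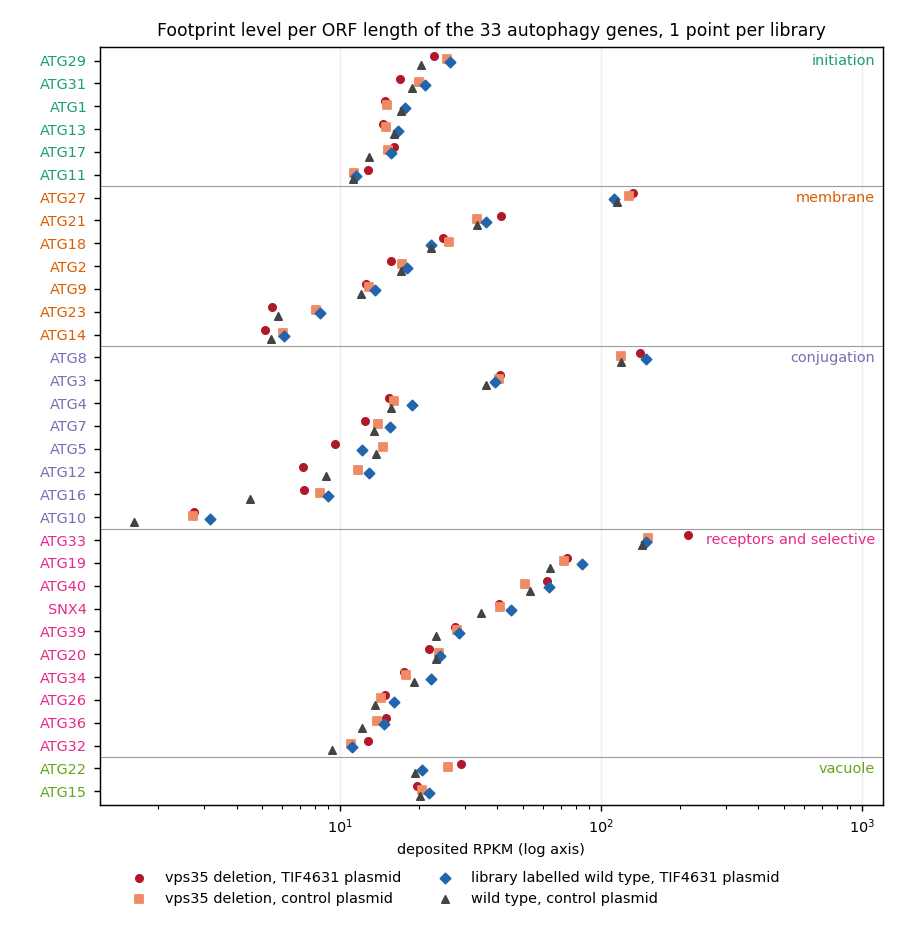
Deposited RPKM (log axis) of the 33 autophagy genes, grouped by role and ordered by mean level, with 1 point for each of the 4 libraries. ATG33, ATG8 and ATG27 stand between 112 and 215 RPKM, while ATG10, ATG14, ATG16 and ATG23 stay at or below 8.97 RPKM in every library.

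The genes of the starting complex lay close together. Atg1 is the kinase, Atg13 its regulator, Atg17, Atg29 and Atg31 the scaffold used in bulk autophagy, and Atg11 the scaffold used in selective autophagy. Mean RPKM ran from 11.7 for ATG11 to 23.8 for ATG29. ATG29 had 22.8 RPKM in the deletion library with TIF4631 and 25.5 RPKM in the deletion control, against 26.4 RPKM in the wt tif library and 20.3 RPKM in the wild-type control. ATG11 stayed between 11.2 and 12.8 RPKM in the 4 libraries, the narrower of these ranges. The subunits of the Atg17, Atg29 and Atg31 scaffold stood at 15.0, 23.8 and 19.3 RPKM, and ATG29 exceeded ATG17 in each library, by 1.42-fold and 1.68-fold in the deletion libraries with the TIF4631 and the control plasmid, and by 1.68-fold and 1.58-fold in the corresponding libraries labelled wild type. ATG29 overlaps SET6 on the opposite strand by 24 bases, and whether the counting used strand is not given in the sources used here.

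Among the genes of vesicle membrane and lipid supply, levels were far from equal. Atg9 is the membrane protein that brings the initial membrane, and Atg23 and Atg27 help its traffic. ATG27 had a mean of 122 RPKM, ATG9 12.8 and ATG23 6.90, so that ATG27 exceeded ATG9 by 10.5-fold and 9.94-fold in the deletion libraries with the TIF4631 and the control plasmid, and by 8.31-fold and 9.59-fold in the corresponding libraries labelled wild type. ATG2, which encodes a lipid transfer protein, stood at 17.0 RPKM, and ATG18, which encodes its partner that binds phosphatidylinositol 3-phosphate, at 23.8 RPKM. ATG14, whose product directs the lipid kinase Vps34 to autophagy, had the lowest mean of this group, at 5.67 RPKM, with 5.16 and 6.02 RPKM in the deletion libraries with the TIF4631 and the control plasmid, against 6.08 and 5.44 RPKM in the corresponding libraries labelled wild type.

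The conjugation genes spanned the range from Atg8 to its helper enzymes. Atg8 is the ubiquitin-like protein that ends up on the vesicle membrane. Atg7 activates both Atg8 and Atg12, Atg3 and Atg10 are their conjugating enzymes, Atg4 trims Atg8, and Atg12, Atg5 and Atg16 form the complex that promotes Atg8 lipidation. ATG8 had 141 and 119 RPKM in the deletion libraries with the TIF4631 and the control plasmid, against 149 RPKM in the library labelled wt tif and 119 RPKM in the wild-type control. ATG3 averaged 39.2 RPKM, ATG4 16.5, ATG7 13.8, ATG5 12.5, ATG12 10.1, ATG16 7.27 and ATG10 2.57. The chain of ATG8 above ATG3 and ATG3 above ATG7 therefore held in every library, whereas ATG5 exceeded ATG12 by 1.24-fold to 1.55-fold in 3 libraries and lay below it, at a ratio of 0.939, in the wt tif library. ATG10 was lowest in the wild-type control, at 1.62 RPKM, and stood between 2.73 and 3.17 RPKM in the others.

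ATG8 was also the only one of the 33 genes whose start region held all 3 motifs searched. The window ran from 250 bases before to 50 bases after the start codon, read from the R64 assembly (RefSeq), and both strands were searched for AGGGG, the stress element bound by Msn2 and Msn4, for GGCGGC, the core of the site bound by the repressor Ume6, and for TGACTC, a word bound by Gcn4. The ATG8 window is shown because it carries the 3 motifs. It lies at chrII:80682-80981 on the minus strand and is written 5′ to 3′ with motif matches in capitals, the GGCGGC pair overlapping.

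ATG8: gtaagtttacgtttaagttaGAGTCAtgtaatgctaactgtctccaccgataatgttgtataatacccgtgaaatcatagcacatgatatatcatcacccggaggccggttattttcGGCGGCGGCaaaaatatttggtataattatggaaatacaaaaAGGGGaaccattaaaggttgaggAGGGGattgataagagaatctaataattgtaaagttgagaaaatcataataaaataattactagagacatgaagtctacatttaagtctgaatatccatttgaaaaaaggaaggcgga

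Counted from the start codon, the GGCGGC matches begin at -133 and -130, the AGGGG matches at -91 and -68, and the TGACTC match, on the other strand, at -230. Across the set, AGGGG was found for 8 of 33 genes (24.2%), against 21.8% of 5417 windows of all listed ORFs. GGCGGC was found for ATG8 and ATG19, 6.06% of the set against 4.78% of all windows. TGACTC was found for 6 genes (18.2%), ATG4, ATG8, ATG10, ATG13, ATG21 and ATG29, against 8.53% of all windows. The ATG10 match begins at base 45 of the coding sequence, and the ATG13 match begins at -5 and runs into the start codon. These matches are descriptions of the letters, not of binding.

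**Figure D2:**
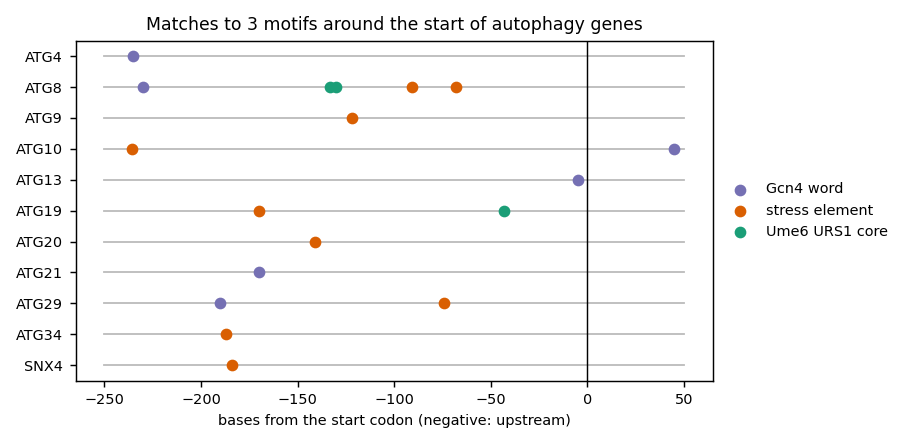
First base of each motif match relative to the start codon (bases, negative upstream) for the 11 autophagy genes with at least 1 match, coloured by motif. ATG8 carries 5 matches, ATG29, ATG19 and ATG10 carry 2 each and the other genes carry 1.

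Receptor and selective genes included the highest level of the set. ATG33, which encodes a mitochondrial outer membrane protein needed for mitophagy, had 215 and 151 RPKM in the deletion libraries with the TIF4631 and the control plasmid, against 149 RPKM in the wt tif library and 143 RPKM in the wild-type control. ATG19, the receptor for Cvt cargo, averaged 73.5 RPKM and its neighbour and relative ATG34, which serves in starved cells, 19.2 RPKM. ATG40 and ATG39, receptors for the endoplasmic reticulum and nuclear envelope, averaged 57.4 and 26.9 RPKM. SNX4 and ATG20, which encode a sorting nexin pair that acts in endosome recycling and in the Cvt pathway, averaged 40.3 and 23.4 RPKM. ATG32, the mitophagy receptor, was lowest at 11.03 RPKM, with ATG36, the receptor for peroxisomes, at 13.9 and ATG26, a sterol glucosyltransferase gene, at 14.7. The single libraries of ATG32 ran from 9.27 RPKM in the wild-type control to 12.8 RPKM in the deletion library with TIF4631. At the vacuole, ATG15, which encodes the lipase that opens the delivered vesicles, averaged 20.6 RPKM, and ATG22, which encodes an amino acid exporter, 23.7 RPKM. ATG22 had 28.9 and 25.9 RPKM in the deletion libraries with the TIF4631 and the control plasmid, against 20.6 and 19.4 RPKM in the corresponding libraries labelled wild type, while ATG15 stayed between 19.7 and 21.8 RPKM.

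Because ATG34 and ATG19 are relatives that lie 1774 bases apart on chromosome XV, their reads could have been mixed. Over 1115 aligned base pairs of their coding sequences 63.9% were identical, and the longest exact run they share was 12 bases, well under the footprint size of about 30 bases. That run lies at the 3′ end of both, where the motif that binds Atg8 is encoded. The last 30 coding bases of each are shown for that reason, at chrXV:166923-166952 and chrXV:169945-169974, both on the plus strand of R64, with the shared run in capitals.

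ATG34: agtaggccatttACTTGGGAAGAAatataa

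ATG19: gaaaaagccctgACTTGGGAAGAActctag

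Of all 33 genes only ATG13 held words of 25 bases that occur more than once in the genome, 8 of them.

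Between the strains with the control plasmid, autophagy genes differed by small amounts, and 8 of the 9 that differed beyond counting error were higher without VPS35. In the deletion control against the wild-type control, the log2 ratios of the 31 genes ran from -0.20 to 0.46 with a median of 0.07, against a median of 0.00 for all kept ORFs. An interval that covers counting error only (95% conditional binomial) lay above 0 for 8 genes and below 0 for 1, against 17.2% and 17.3% of all kept ORFs. No gene reached a 2-fold difference with such an interval, as 0.260% of ORFs did upward and 0.540% downward. ATG22, the gene of the amino acid exporter, stood at 40.2 CPM in the deletion control and 30.6 CPM in the wild-type control, a log2 ratio of 0.39 (interval 0.21 to 0.58). ATG23 had 10.7 CPM in the deletion control and 7.78 CPM in the wild-type control, a log2 ratio of 0.46 (0.10 to 0.83). SNX4 had 50.7 CPM in the deletion control, set against 43.6 CPM in the wild-type control, a log2 ratio of 0.22 (0.06 to 0.38). ATG18, ATG19, ATG27, ATG29 and ATG39 were the other genes above 0, at log2 ratios of 0.13 to 0.31. ATG1 alone was below, with 40.1 CPM in the deletion control and 46.0 CPM in the wild-type control, a log2 ratio of -0.20 (-0.37 to -0.03). All 6 kept conjugation genes had intervals that included 0, ATG8 among them at -0.02 (-0.19 to 0.15). ATG16, under the count minimum, had 41 counts in the deletion control and 35 in the wild-type control, a log2 ratio with no filter of 0.86 (0.17 to 1.55).

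**Figure D3:**
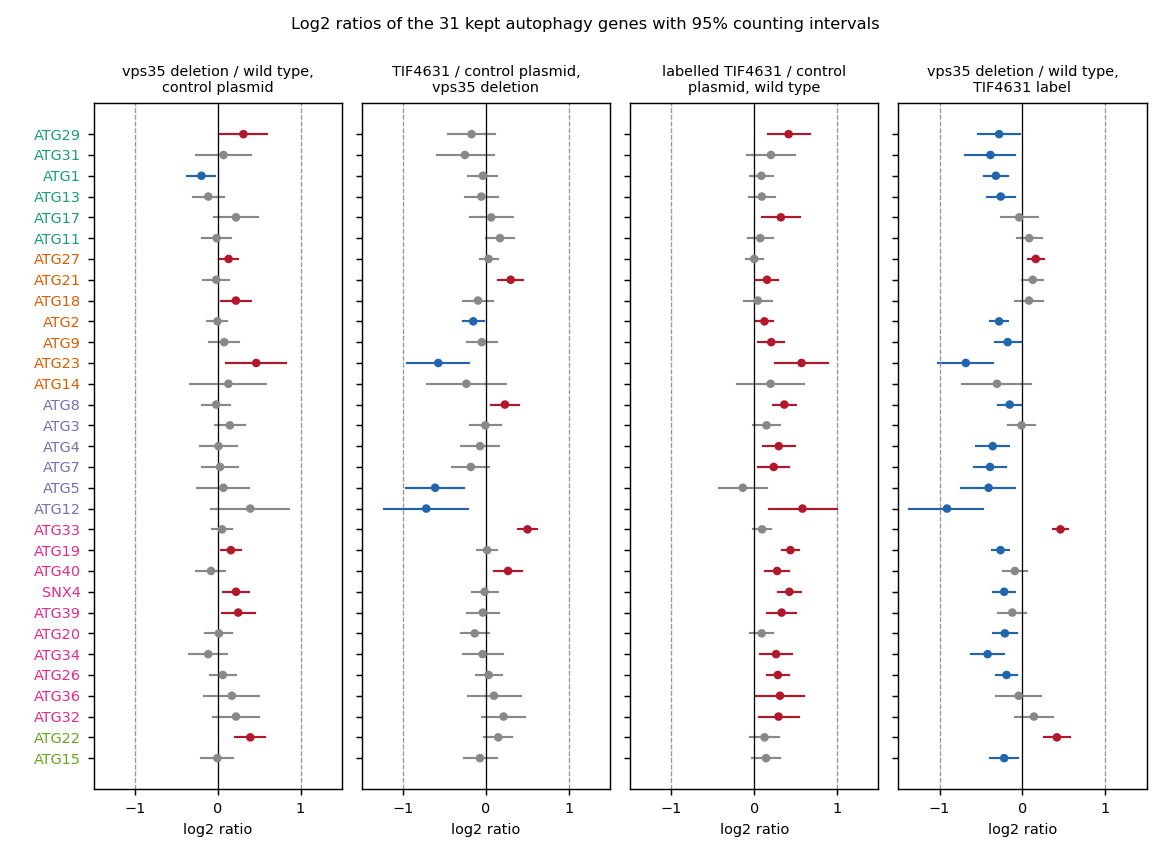
Log2 ratios of the 31 kept autophagy genes in 4 pairs of libraries, with 95% counting intervals as bars; red points have intervals above 0, blue points below 0 and grey points include 0, and dashed lines mark 2-fold. In the third panel 18 genes are red and 0 blue, and in the fourth 3 are red and 18 blue.

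With raised TIF4631 in vps35 deletion cells, where the log2 ratio of TIF4631 itself was 3.84, few autophagy genes differed beyond counting error, and they lay in both directions. The log2 ratios of the deletion library with TIF4631 to the deletion control had a median of -0.04, against 0.01 for all kept ORFs, and ran from -0.72 to 0.50. Intervals lay above 0 for 4 genes and below 0 for 4, against 30.1% and 31.3% of all kept ORFs. No gene passed 2-fold, which 1.06% of ORFs passed upward and 0.560% downward. ATG33 stood highest, at 122 CPM with TIF4631 and 86.2 CPM in the deletion control, a log2 ratio of 0.50 (0.39 to 0.61). The wt tif library had 88.7 CPM and the wild-type control 83.1 CPM, so that the deletion library with TIF4631 stood above the other 3. ATG21, whose product binds phosphatidylinositol 3-phosphate and guides Atg8 lipidation, had 59.8 CPM, against 48.6 CPM, a log2 ratio of 0.30 (0.15 to 0.45), with 54.9 CPM in the wt tif library and 49.3 CPM in the wild-type control. ATG40 had 46.0 CPM, against 38.3 CPM, a log2 ratio of 0.27 (0.10 to 0.44), and ATG8 had 46.7 CPM, against 39.8 CPM, one of 0.23 (0.06 to 0.40).

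The lower genes in that pair of libraries were ATG12, ATG5, ATG23 and ATG2. ATG12 had 3.84 CPM with TIF4631 and 6.33 CPM in the deletion control, a log2 ratio of -0.72 (-1.23 to -0.22), from 64 and 72 counts. ATG5, whose product Atg12 is joined to, had 8.15 CPM, against 12.5 CPM, a log2 ratio of -0.61 (-0.96 to -0.27), while the wt tif library had 10.8 CPM and the wild-type control 11.9 CPM. The products of both genes belong to the complex that promotes Atg8 lipidation. ATG23 had 7.19 CPM, against 10.7 CPM, a log2 ratio of -0.58 (-0.95 to -0.20), and ATG2 had 73.0 CPM, against 81.2 CPM, one of -0.15 (-0.28 to -0.03). ATG12 and ATG5 were past 1.5-fold downward, as 4.94% of all kept ORFs were. The third partner of that complex, ATG16, had 52 and 41 counts in the deletion libraries with the TIF4631 and the control plasmid, too few for a narrow interval, and its log2 ratio with no filter was -0.21 (-0.82 to 0.42). With a minimum of 1000 counts, which removes ATG5, ATG12 and ATG23, 1 gene was lower and 5 were higher. GAL1, a gene induced by galactose, had 20618 CPM in the deletion library with TIF4631 and 27408 CPM in the deletion control, and the part of that difference in these ratios was not tested.

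The wt tif library held more footprints of many autophagy genes than the wild-type control, by small amounts. The median log2 ratio of the 31 genes was 0.21, against 0.00 for all kept ORFs, and 18 genes had intervals above 0 and 0 below, against 24.0% and 23.6% of all kept ORFs. No gene passed 2-fold, which 0.460% of ORFs passed upward and 0.100% downward, and the largest log2 ratio was 0.58. Intervals lay above 0 for 8 of the 10 kept receptor and selective genes, 4 of 6 conjugation genes and 4 of 7 membrane genes. The same held for 2 of 6 genes of the starting complex and 0 of the 2 vacuole genes, against 24.0% of all kept ORFs. ATG19 had 107 CPM in the wt tif library and 78.9 CPM in the wild-type control, a log2 ratio of 0.44 (0.34 to 0.54), and the deletion libraries, at 89.0 CPM with TIF4631 and 88.1 CPM with the control plasmid, lay between them. SNX4 had 58.5 CPM, against 43.6 CPM, a log2 ratio of 0.42 (0.29 to 0.56). ATG8 had 52.0 CPM, against 40.4 CPM, a log2 ratio of 0.36 (0.22 to 0.51). ATG23 had 11.6 CPM, against 7.78 CPM, a log2 ratio of 0.57 (0.25 to 0.90), and ATG12 had 7.24 CPM, against 4.83 CPM, one of 0.58 (0.18 to 0.999). ATG27 was level at 92.8 CPM in both, a log2 ratio of 0.00 (-0.10 to 0.10), and ATG5 was the only kept gene with a negative value, at -0.14 (-0.43 to 0.15).

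The genes under the count minimum lay the same way there. ATG16 had 71 counts in the wt tif library and 35 in the wild-type control, a log2 ratio with no filter of 1.02 (0.42 to 1.65), and ATG10 had 28, against 14, one of 0.98 (0.03 to 2.05). The pattern was present in each class of depth: 4 of 7 genes with 200 to 1000 summed counts, 9 of 17 with 1000 to 3000 and 5 of 7 with more had intervals above 0, against 15.0%, 20.1% and 28.2% of all ORFs in the same classes. This comparison and the one for loss of VPS35 share the wild-type control library, so their ratios are not independent.

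Under the TIF4631 plasmid label, 18 autophagy genes were lower in the deletion library than in the library labelled wild type, and 3 were higher, against 35.3% and 33.8% of all kept ORFs. TIF4631 itself differed between these libraries, at 6218 CPM and 403 CPM in that order, so strain and TIF4631 level cannot be told apart. The median log2 ratio was -0.21, against 0.00 for all kept ORFs. No gene passed 2-fold, which 1.58% of ORFs passed upward and 2.40% downward. ATG12 had 3.84 CPM in the deletion library and 7.24 CPM in the library labelled wild type, a log2 ratio of -0.91 (-1.37 to -0.47), ATG23 one of -0.68 (-1.02 to -0.35) and ATG34 one of -0.42 (-0.62 to -0.22). ATG12 and ATG23 were past 1.5-fold, as 7.88% of all kept ORFs were. The 3 higher genes were ATG33 at 0.46 (0.36 to 0.56), ATG22 at 0.42 (0.26 to 0.58) and ATG27 at 0.16 (0.06 to 0.26). ATG27 had 104 and 102 CPM in the deletion libraries with the TIF4631 and the control plasmid, against 92.8 CPM in both libraries labelled wild type. ATG34 had 21.0 and 21.6 CPM in the deletion libraries with the TIF4631 and the control plasmid, against 28.2 and 23.5 CPM in the corresponding libraries labelled wild type, with the wt tif library above the other 3. This comparison shares a library with each of the plasmid comparisons, and its lower count rests on the library that goes against its label. With the wild-type control in its place the median was 0.12, with 12 genes higher and 4 lower, against 33% each way of all kept ORFs.

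In both comparisons of the strains, which share no library, ATG22, ATG27 and ATG1 kept their direction beyond counting error and 4 genes reversed it. In the comparison under the TIF4631 label, TIF4631 stood at 6218 CPM in the deletion library and 403 CPM in the wt tif library. Strain and TIF4631 level therefore cannot be told apart in it. ATG22 had 44.5 and 40.2 CPM in the deletion libraries with the TIF4631 and the control plasmid, against 33.4 and 30.6 CPM in the corresponding libraries labelled wild type. ATG1 had 39.1 and 40.1 CPM in the deletion libraries, against 48.8 and 46.0 CPM in those labelled wild type. In all, 2 genes, ATG22 and ATG27, were higher beyond counting error in both pairs, as 7.40% of all kept ORFs were. ATG1 alone was lower in both, as 8.67% were. Opposite signs were found for 4 of the 31 genes, ATG19, ATG23, ATG29 and SNX4, higher under the control plasmid and lower under the TIF4631 label. That pattern held for 5.30% of all kept ORFs, and its second comparison rests on the wt tif library. In the 2 comparisons of plasmids, which also share no library, ATG8, ATG21 and ATG40 were higher in both, 3 genes against 7.16% of all kept ORFs, and no gene was lower in both.

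The test that used all libraries at once was edgeR's quasi-likelihood fit over all kept ORFs, with additive terms for strain and for plasmid. It has 1 residual degree of freedom and takes the plasmid labels as given, although TIF4631 was high in only 1 of the 2 libraries labelled with its plasmid. A plasmid effect that differs between the strains counts as residual spread in this fit. For loss of VPS35, 0 of 31 autophagy genes passed an adjusted p of 0.05, as 0.620% of all ORFs did, and 1 had an unadjusted p under 0.05. That gene was ATG22, with a log2 change of 0.40 (SE 0.16) and an edgeR adjusted p = 0.619. For the TIF4631 plasmid, 0 of 31 genes passed, as 0.00% of all ORFs did, and 0 had an unadjusted p under 0.05. ATG8 had the lowest value there, with a log2 change of 0.30 (SE 0.15) and an edgeR adjusted p = 0.999. TIF4631 itself was among the ORFs that did not pass for the plasmid. That term therefore cannot decide whether the autophagy genes differ with TIF4631. DESeq2 and limma also passed 0 of the 31 genes for either factor.

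**Figure D4:**
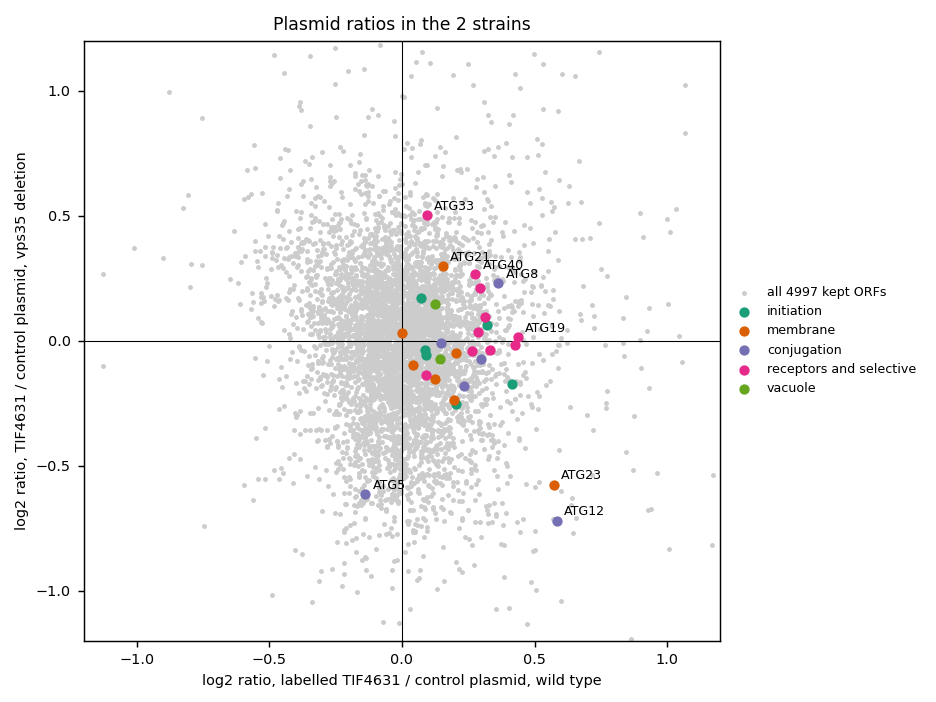
Log2 ratio of the TIF4631 to the control plasmid in vps35 deletion cells (vertical) against that in the libraries labelled wild type (horizontal), for all kept ORFs in grey and the autophagy genes coloured by role; 54 ORFs lie outside the range of 1.2 shown. ATG12 and ATG23 lie at the lower right, and ATG33 at the top of the autophagy genes.

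The difference between the plasmid ratios of the strains, deletion minus wild type, takes its second term from the library that goes against its label. Its median over the 31 genes was -0.25, against -0.02 for all kept ORFs, with 1 gene above 0 and 15 below beyond counting error, against 27.5% and 31.5% of all kept ORFs. ATG12, at -1.30 (-1.93 to -0.68), and ATG23, at -1.15 (-1.63 to -0.67), were past 2-fold downward, as 1.78% of ORFs were, and 0 genes were past it upward, as 1.58% were. ATG33 was the gene above 0, at 0.41 (0.26 to 0.56), and ATG19 lay at -0.42 (-0.58 to -0.27). ATG16, under the count minimum, lay at -1.23 (-2.05 to -0.40) with no filter. ATG12 and ATG23 shared their order over the libraries, lowest in the deletion library with TIF4631, next in the wild-type control, then in the deletion control and highest in the wt tif library. In that order ATG12 had 3.84, 4.83, 6.33 and 7.24 CPM and ATG23 had 7.19, 7.78, 10.7 and 11.6 CPM. Between neighbours in that order, the log2 ratio of the deletion control to the wild-type control was beyond counting error for ATG23, at 0.46 (0.10 to 0.83). It was not for ATG12, at 0.39 (-0.08 to 0.86). The deletion library with TIF4631 and the wild-type control did not differ beyond counting error for ATG12, at -0.33 (-0.82 to 0.15). The same held for ATG23, at -0.11 (-0.48 to 0.25). For both genes the counting intervals of CPM in the deletion control and the wt tif library overlapped. The full order was therefore not resolved, and the share of all kept ORFs with it was not counted. The lowest and highest libraries differed beyond counting error for both genes, as given above.

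The sequences around the start codon are shown because eIF4G acts at initiation, for ATG12 and ATG23, past 2-fold in the difference above, for ATG33, the gene above 0 there, for ATG5, among the lower genes with raised TIF4631, and for ATG8. They are written 5′ to 3′ from the R64 assembly, with 10 bases before the start codon, which is in capitals, and 3 after it.

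ATG12: caatgacagtATGagt

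ATG23: agaagtaaatATGgaa

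ATG33: atataaaaagATGtct

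ATG5: tgatgtaagtATGaat

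ATG8: tactagagacATGaag

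An adenine 3 bases before the start, the base most common there in yeast, was present in 14 of 33 autophagy genes (42.4%), among them ATG5, ATG12, ATG23 and ATG33, against 60.3% of all windows. The share was 52.1% among ORFs below the median RPKM, where 26 of the 33 genes lie, and 68.4% above it. An ATG word within 100 bases before the start was present for 17 genes (51.5%), against 50.5% of all windows, with 5 such words for ATG5, 2 for ATG12 and none for ATG8, ATG23 and ATG33.

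Partners of the ATG proteins were described from lists chosen by role, 55 ORFs in all, each above the count minimum. The 4 Cvt cargo genes, the aminopeptidases APE1 and APE4, the mannosidase AMS1 and the cysteine protease LAP3, each a protein carried to the vacuole by that route, were all higher beyond counting error in the wt tif library than in the wild-type control, as 24.0% of all kept ORFs were, with a median log2 ratio of 0.34. LAP3 had 469 CPM in the deletion library with TIF4631 and 725 CPM in the deletion control, against 1188 CPM in the wt tif library and 762 CPM in the wild-type control. It was the partner past 2-fold, at -1.34 (-1.38 to -1.30) between the strains under the TIF4631 label. LAP3, also named GAL6, is itself induced by galactose, and GAL1 stood at 20618 and 27408 CPM in the deletion libraries with the TIF4631 and the control plasmid, against 31089 and 27667 CPM in the corresponding libraries labelled wild type, a difference whose part in the LAP3 values was not tested. APE1 stood at 348 and 360 CPM in the deletion libraries with the TIF4631 and the control plasmid. The corresponding libraries labelled wild type had 433 and 338 CPM. APE1 was highest in the wt tif library, as were 23 of 31 kept autophagy genes, its receptor gene ATG19 among them. In all, 25.6% of kept ORFs were highest there. AMS1 had 245 and 246 CPM in the deletion libraries with the TIF4631 and the control plasmid, against 250 and 200 CPM in the corresponding libraries labelled wild type, with the wild-type control below the other 3. Its log2 ratio for loss of VPS35 under the control plasmid was 0.30 (0.23 to 0.37).

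The lipid kinase genes VPS34, VPS15, VPS30, VPS38 and ATG38 had intervals that all included 0 for loss of VPS35 under the control plasmid, and 4 of 5 were higher with raised TIF4631 in deletion cells, as 30.1% of all kept ORFs were. VPS30, also named ATG6, led with 36.0 CPM, against 24.4 CPM in the deletion control, a log2 ratio of 0.56 (0.36 to 0.78). Of the 10 regulators linked to ATG transcription, 7 were higher and 2 lower in that pair, against 30.1% and 31.3% of all kept ORFs, and 1 was higher and 3 lower for loss of VPS35 under the control plasmid, against 17.2% and 17.3%. GCN4, the activator of amino acid synthesis genes, which is itself controlled by upstream start codons, had 87.2 and 74.7 CPM in the deletion libraries with the TIF4631 and the control plasmid, against 147 and 102 CPM in the corresponding libraries labelled wild type. Its log2 ratio for loss of VPS35 under the control plasmid was -0.46 (-0.58 to -0.34), the lowest among the partners. UME6, the repressor of ATG8, had 39.7 CPM in the deletion control and 46.7 CPM in the wild-type control, a log2 ratio of -0.23 (-0.40 to -0.06). ATG8 lay at -0.02 in that pair. Of the 21 signalling genes, 7 were higher and 8 lower with raised TIF4631 in deletion cells, shares of 33.3% and 38.1% that lie near the 30.1% and 31.3% of all kept ORFs. SLM4, a subunit of the EGO complex that anchors TORC1 regulators at the vacuole, lay at 0.54 (0.36 to 0.72) in that pair, and NPR2, a subunit of the SEACIT complex that inhibits TORC1, at 0.54 (0.34 to 0.75). SLM4 had 46.4 and 31.9 CPM in the deletion libraries with the TIF4631 and the control plasmid, against 36.7 and 34.4 CPM in the corresponding libraries labelled wild type. SCH9, a kinase downstream of TORC1, stood at 165 CPM in the deletion library with TIF4631 and between 123 and 129 CPM in the other 3. Of the 13 docking and fusion genes 4 were higher and 1 lower with raised TIF4631 in deletion cells. These shares of 30.8% and 7.69% compare with 30.1% and 31.3% of all kept ORFs. VAM6, a subunit of the HOPS tether, was the lowest partner in the wt tif library relative to its control, at -0.20 (-0.34 to -0.06), with 46.5 CPM, against 53.4 CPM. The vacuolar proteases were level or slightly higher: PEP4 had 1578 CPM in the deletion library with TIF4631 and 1255 CPM in the deletion control, a log2 ratio of 0.33, while PRB1 had 1330 and 1334 CPM in the same libraries.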

How the data were processed

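Footprints were measured in 4 libraries, 1 per group, from cells filtered, frozen and ground, with RNase I digestion and gel selection of fragments of about 30 nucleotides, per the labels' protocols. The counts deposited by the authors give whole reads for each ORF, and the deposited RPKM was scaled by the authors to ORF length and dataset reads, per the file headers. The length behind RPKM was 15 bases under the annotated gene length for all 33 genes. CASAVA, cutadapt 1.3, Bowtie2 and the sacCer3 build come from the submitters' processing notes; for the counting tool, the ORF annotation and the filters, none is named (not given in the sources used here). A locus tag of R64 matched 5438 of 5441 ORFs, and that reference, the same assembly, gave gene names and sequences.

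The wt tif library is the one labelled as wild type with TIF4631. From the counts, ORFs with at least 200 summed counts were kept and CPM was scaled by TMM in edgeR 4.0.16 (R 4.3.3). Levels between genes use RPKM. Log2 ratios add 0.5 counts, with 95% conditional binomial (Clopper-Pearson) intervals from scipy 1.17.1, or a normal interval for the difference of 2 ratios. These intervals cover counting error only, and PCR copies are not independent molecules, so they compare libraries, not conditions. A difference beyond counting error has an interval that excludes 0, and the rule of size adds at least 2-fold. The adjusted p-values are Benjamini-Hochberg values from edgeR over 4997 ORFs. Alternatives were total counts, DESeq2 1.42.0 size factors and test, limma 3.58.1, other filters, 5 added counts and a 1.5-fold rule. Leaving out a replicate was not possible with 1 library per group. A minimum of 3 counts is 0.166 to 0.267 CPM. The pipeline was tested on simulated data. The text names all 33 genes. It gives values, not always for every library, for the genes past the rule of size. The same holds for the 3 highest and 3 lowest of each comparison by the interval bound nearest 0. It also holds for the role groups' extremes in RPKM and for the extreme partners. Other genes were named after their values were seen. The genes and partner lists were chosen with earlier results of these data known.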

Additional observations from a re-analysis of the deposited data

Results flagged for a closer look

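Among the autophagy genes, 3 had TIF4631-to-control ratios of opposite sign in the 2 strains, both beyond counting error, with the lower ratio in the vps35 deletion. The difference of the log2 ratios, deletion minus wild type, was -1.30 for ATG12, -1.15 for ATG23 and -0.28 for ATG2. With 1 library per group these differences were not tested against replicate error. The wild-type ratio rests on the wt tif library, titled for wild type with TIF4631, which goes against its label in TIF4631 itself. ATG12 rests on 64 and 72 counts in the deletion libraries with the TIF4631 and the control plasmid, and on 127 and 85 counts in the corresponding libraries labelled wild type. Across all kept ORFs, 8.47% showed the same pair of signs beyond counting error. The 3 of 31 kept autophagy genes lie near that share.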

How the results depend on the processing

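All 740 values of single genes under other scalings, filters and added counts stayed within their counting intervals. In the wt tif library against the wild-type control, 15 genes were higher by total counts, 18 with DESeq2 size factors, 20 with no filter and 14 with a minimum of 1000, and 0 were lower in each; with no filter 1 gene, ATG16, passed the rule of size. With the minimum of 1000 counts, 1 gene was lower with raised TIF4631 in deletion cells, and 9 were lower and 0 passed the rule of size for the difference between the plasmid ratios; this minimum removes 7 genes, ATG5, ATG12 and ATG23 among them. The 1.5-fold rule passed 2 genes with raised TIF4631 in deletion cells and 2 between the strains under the TIF4631 label. For that strain comparison, total counts gave 5 higher genes, the cause was not tested, and the wild-type control in place of the wt tif library, chosen after seeing the data, gave a median of 0.12 with 12 genes higher and 4 lower. In the additive model, the number of ORFs past the adjusted threshold varied with the setting. For loss of VPS35 it was 31 by edgeR, 83 by total counts, 94 with no filter, 66 by DESeq2 and 34 by limma. For the plasmid it was 0 by edgeR (168 had an unadjusted p below the 0.05 threshold), 2 by total counts, 4 with no filter, 6 by DESeq2 and 0 by limma. No paired analysis was possible because each group is 1 library and the labels carry no replicate numbers. Counting intervals are wider for the genes with fewer counts, and the kept genes had a median of 2220 summed counts.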
